A study of Mus musculus with 69 samples.

Results

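The adipocyte genes described here are 8 genes that fat cells use: Adipoq, Plin1, Cidec, Fabp4, Cfd, Lep, Retn and Ucp1. They were chosen by name, as the probes whose transcript identifier maps to 1 of these symbols, with earlier results of these data known. All 8 were on the array, with 11 probes, out of 18749 genes and 27479 probes with a symbol. Their levels were followed in the lungs of 69 female C57BL/6 mice, each on its own 2-colour array against the Universal Mouse Reference RNA. Mice were 5 to 7 weeks old on arrival and were acclimatised for 1 to 3 weeks. Each received 1 intratracheal instillation of 18, 54 or 162 µg of titanium dioxide nanoparticles, either NRCWE-001 or NRCWE-002, or the vehicle. NRCWE-002 is the particle with a positively charged surface. The vehicle was 2% serum in water per the design text and is labelled H2O in the sample titles. Lungs were taken after 1 or 28 days, in 14 groups of 5 mice, except for 4 vehicle mice on day 28. RNA came from a small frozen section of each lung, so a section samples only a part of the organ. The labels do not say which lobe or region the section came from. Each array is 1 mouse, so the replicates are animals.

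White fat cells store triglyceride in 1 large lipid droplet and secrete hormones, while brown fat cells burn lipid for heat. Plin1 and Cidec encode proteins of the lipid droplet surface, perilipin 1 and the droplet-enlarging protein CIDEC. Fabp4 encodes the fatty acid carrier of fat cells, which endothelial cells and macrophages also make. Adipoq, Lep, Retn and Cfd encode the secreted proteins adiponectin, leptin, resistin and adipsin, the last being the protease complement factor D. Ucp1 encodes the uncoupling protein of brown fat. Fat tissue lies in the chest beside the lung roots and the heart.

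Upstream sequences are shown for 3 members that varied together between lungs, Adipoq, Cfd and Plin1, and for Cidec, which varied differently. Each is the stretch of 250 bases before a RefSeq transcription start in build GRCm38.p6, printed 5′ to 3′ in the sense of the gene. Positions are chr16:23146286-23146535 on the plus strand for Adipoq, chr10:79890603-79890852 on the plus strand for Cfd, chr7:79732777-79733026 on the minus strand for Plin1 and chr6:113434765-113435014 on the minus strand for the downstream of 2 Cidec starts. Capitals mark the C/EBP motif TTNNGCAA, on either strand. C/EBP factors and PPARγ are the main transcription factors of fat cell genes.
Adipoq: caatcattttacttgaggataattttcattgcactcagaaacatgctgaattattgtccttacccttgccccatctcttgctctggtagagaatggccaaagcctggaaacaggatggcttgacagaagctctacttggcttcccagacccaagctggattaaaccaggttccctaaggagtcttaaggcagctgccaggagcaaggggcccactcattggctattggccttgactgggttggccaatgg
Cfd: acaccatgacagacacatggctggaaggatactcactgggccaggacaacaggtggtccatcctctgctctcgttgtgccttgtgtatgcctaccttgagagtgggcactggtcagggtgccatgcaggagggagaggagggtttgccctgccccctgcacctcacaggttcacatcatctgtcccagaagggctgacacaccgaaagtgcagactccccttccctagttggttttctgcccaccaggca
Plin1: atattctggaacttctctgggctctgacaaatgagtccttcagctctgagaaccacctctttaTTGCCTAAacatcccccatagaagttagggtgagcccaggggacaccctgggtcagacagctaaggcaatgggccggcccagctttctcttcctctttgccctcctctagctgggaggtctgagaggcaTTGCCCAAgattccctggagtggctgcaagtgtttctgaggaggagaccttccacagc
Cidec: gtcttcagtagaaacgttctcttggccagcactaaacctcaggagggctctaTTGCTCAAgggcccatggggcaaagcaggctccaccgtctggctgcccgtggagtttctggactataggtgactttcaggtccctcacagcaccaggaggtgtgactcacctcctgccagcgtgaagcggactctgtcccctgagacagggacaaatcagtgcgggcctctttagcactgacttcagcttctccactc
The motif TTNNGCAA was found in 3 of the 8 member promoters (Lep, Plin1 and 1 of the Cidec starts) and in 9.56% of all 32851 promoters. Its palindromic form TTGCGCAA, every match of which is also a match of TTNNGCAA, was found for Lep, with its last base 48 bases before the start, and in 0.164% of all promoters. The nuclear receptor core motif AGGTCA was found for Ucp1, 9 bases before the start, and in 14% of all promoters. No member promoter held the repeat called DR1, which is 2 copies of AGGTCA with 1 base of any kind between them and which 0.0335% of promoters held, or the TATA box letters TATAAA, which 12.4% held. Both strands were searched. The printed Adipoq and Cfd stretches held none of these letters, so the members with the widest spread shared no motif of this search. Fabp4 is named only.

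The adipocyte genes fell into those that differed widely between lungs of the same group and those near the limit of detection. Levels are given as log2 ratios of lung to reference RNA, and the spread between animals as the SD within groups, pooled over the 14 groups. The SD was 2.06 for Cfd, the fifth largest of 18749 genes, against 0.18 for the median gene. It was 1.08 for Adipoq, 0.71 for Fabp4, 0.66 for Plin1, 0.48 for Cidec and 0.48 for Retn, each at or above the 96.9th percentile of genes. It was 0.12 for Ucp1 and 0.1 for Lep, below the median gene. With the scanner's processed signals it was 2.28 for Cfd and 0.76 for Fabp4, and moved to 1.94 for Adipoq, 1.31 for Plin1, 1.18 for Retn, 0.88 for Cidec, 0.57 for Ucp1 and 0.44 for Lep. In whole tissue, more fat cells and more RNA of these genes per fat cell cannot be told apart.

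**Figure D1:**
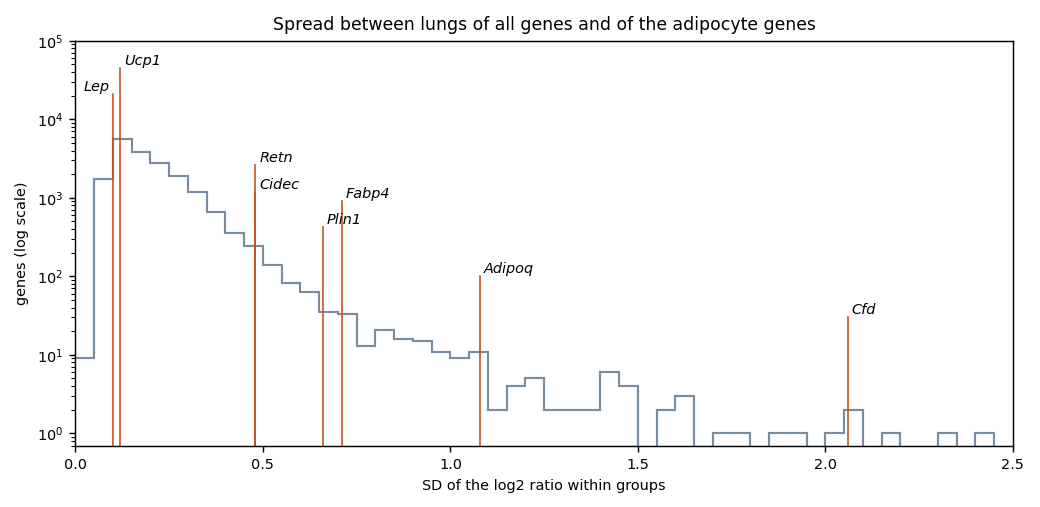
SD of the log2 ratio within groups (horizontal axis) for all 18749 genes, as the number of genes per bin of 0.05 on a log vertical axis, with the 8 adipocyte genes marked by vertical lines whose height only carries the label. Cfd at 2.06 and Adipoq at 1.08 lie far into the tail, and Lep and Ucp1 lie at the low end.

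A wide spread of Cfd and Adipoq was already present in mice that received no particles. Adipsin (Cfd) had log2 ratios of 4.44, 1.16, 3.78, 3.78 and 5.11 in the vehicle lungs of day 1 and of 6.36, 1.19, 3.29 and 3.59 in those of day 28. The brightest vehicle lung was 36.73-fold above the dimmest, and a high and a low lung occurred on both days. Adiponectin (Adipoq) had log2 ratios of 0.86, -0.11, 0.34, 0.56 and 1.6 in the vehicle lungs of day 1 and of 2.42, -0.02, 0.14 and 0.09 in those of day 28. On each day the mouse with the lowest Cfd was also the mouse with the lowest Adipoq. Among the vehicle arrays alone, the SD of Adipoq stood at the 99.8th percentile of genes and that of Cfd at the 100th. The SD within groups was 1.79 in vehicle and 2.09 in exposed lungs for Cfd, and 0.91 and 1.1 for Adipoq. The vehicle SD was smaller beside the exposed SD for Plin1 (0.36 against 0.7), Fabp4 (0.46 against 0.74), Retn (0.29 against 0.5) and Cidec (0.28 against 0.51).

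Over all 69 lungs, Cfd ran from a log2 ratio of -0.14 to 7.84 with a median of 4.13. Adipoq ran from -0.35 to 5.42 with a median of 0.61. The lowest value of both came from 1 lung, replicate 2 of NRCWE-002 at 54 µg on day 28, in which neither probe was well above background, so no fold is given for these ranges. Plin1 ran from -0.11 to 4.3, with a median of 0.43, and Retn from -0.36 to 2.93, with a median of -0.02. Fabp4 stayed above the reference in every lung, from 1.35 to 5.44. Cidec had the highest floor of the 8 genes, from 2.88 to 6.17 with a median of 4.48. Adipoq exceeded a log2 ratio of 2 in 15 of the 69 lungs, 1 of them a vehicle lung, and fell below 0 in 16, 2 of them vehicle lungs. Where a probe was dim, background light in both channels enters the deposited ratio, so a low ratio there is not a measured level.

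**Figure D2:**
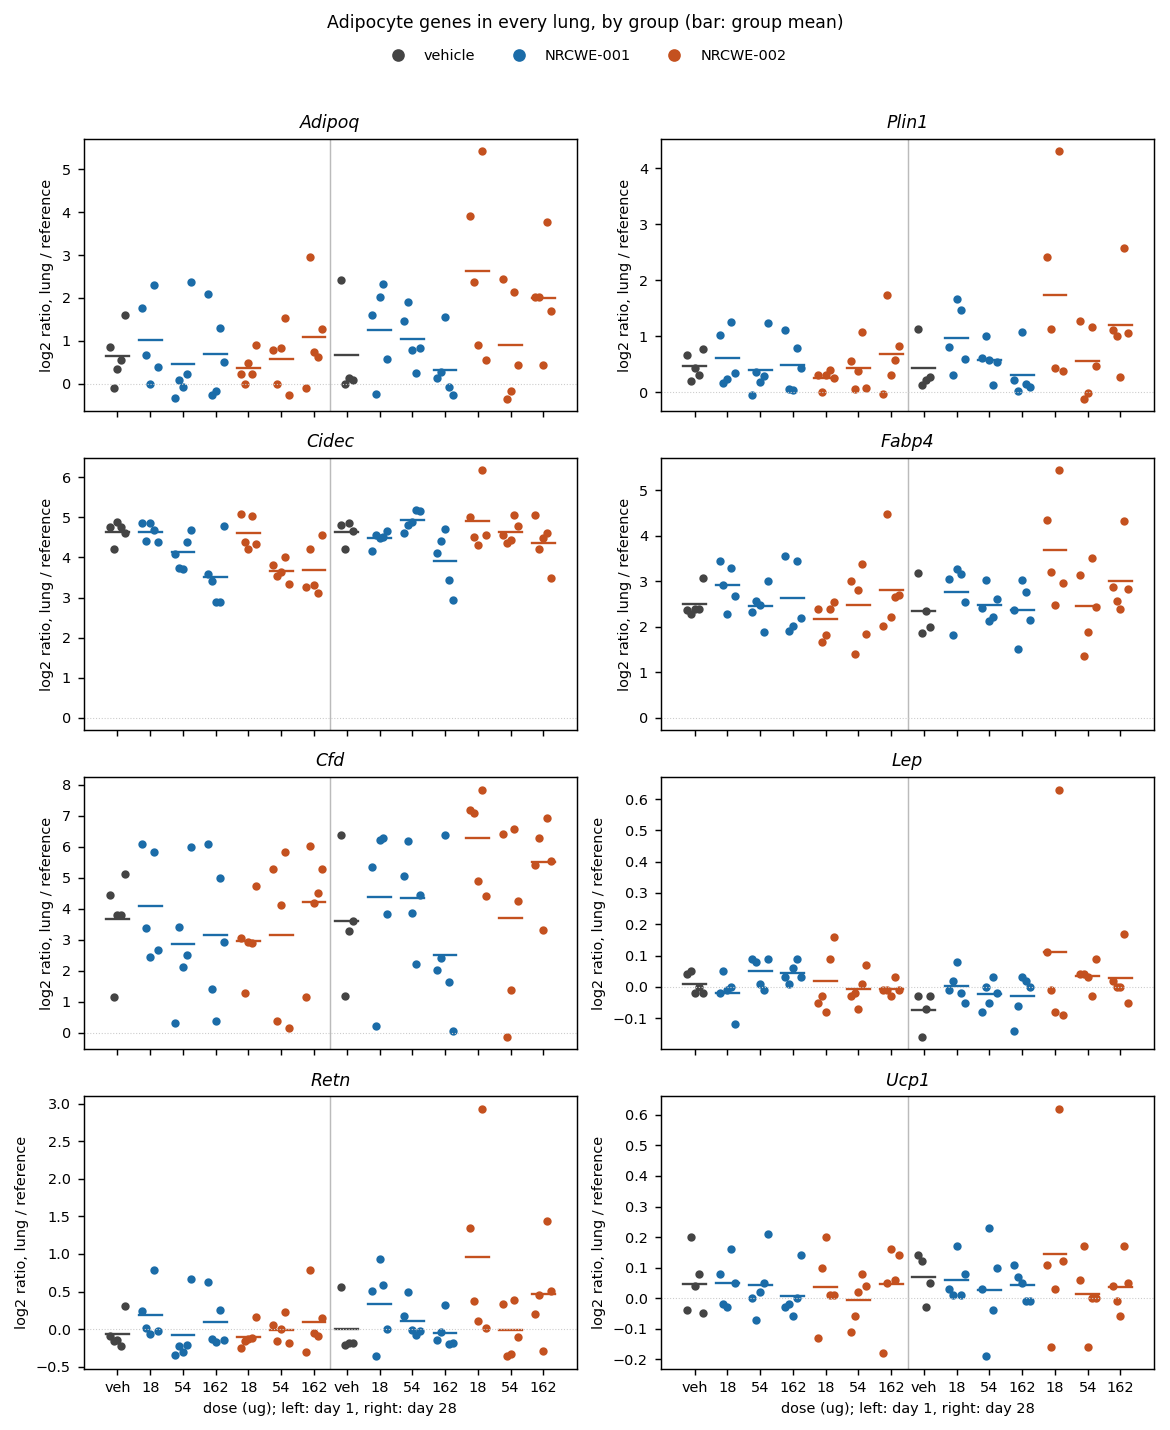
Log2 ratio of lung to reference RNA (vertical axes, scaled per gene) of the 8 adipocyte genes in each of the 69 lungs (points), by vehicle (veh) or dose in µg and by day, with bars at the group means. The lung of NRCWE-002 at 18 µg on day 28 with Adipoq at 5.42 was the highest in all 8 panels, and the vehicle lungs of Cfd spread from 1.16 to 6.36.

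The spread of Cfd and Adipoq was wider in the lung channel than in the reference channel. The reference channel holds the same RNA on every array, and its SD within groups, on the log2 intensity scale, was 0.27 for Cfd and 0.23 for Adipoq, against 2.17 and 1.15 in the lung channel. Both probes were dim in the reference channel, with median net signals of 21.5 and 19. The offset of 50 added before the log therefore holds these SDs down. They still stood at the 89.3th and 83.3th percentile of that channel, where the median gene had 0.14. The share of the within-group sum of squares that lay between the 18 slides was 27.2% for Cfd and 47.9% for Adipoq, against 52.7% for the median gene. Group-centred Adipoq had a correlation of -0.05 with the share of spots well above background in the lung channel. Its correlation with the log2 median intensity was 0.13 for the lung channel and 0.18 for the reference channel.

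Detection divided the members. Fabp4 was well above background on all 69 arrays with 2 of its 3 probes, and Cidec on all 69 with its single probe. Plin1 and Cfd were well above background on 67 arrays each and Adipoq on 61. The 2 probes of Retn were well above background on 55 and 45 arrays, and their group-centred values had a correlation of 0.95 over the 69 arrays. The 3 probes of Fabp4 correlated at 0.79 to 0.98. Leptin (Lep) was well above background on 3 arrays and Ucp1 on 9. Their values therefore say little about most lungs, and both had their highest ratio, 0.63 for Lep and 0.62 for Ucp1, in the lung with the highest Adipoq.

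Plin1, Retn, Fabp4 and Cfd rose and fell with Adipoq from lung to lung. After subtraction of group means, the correlation with Adipoq over 69 lungs was 0.94 for Plin1, 0.92 for Retn, 0.88 for Fabp4 and 0.85 for Cfd. Spearman's rho was 0.93, 0.91, 0.84 and 0.91 in the same order. For these 4 genes no permutation reached the observed r or rho, so each p was 1e-05, the smallest that 100000 permutations can give, and 1.75e-05 after Benjamini-Hochberg adjustment over the 7 genes. Without the 2 lungs farthest from the median of Adipoq, r was 0.95 for Plin1, 0.93 for Retn, 0.87 for Fabp4 and 0.87 for Cfd. With values centred on slide in place of group, it was 0.93, 0.93, 0.89 and 0.85 for these genes.

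**Figure D3:**
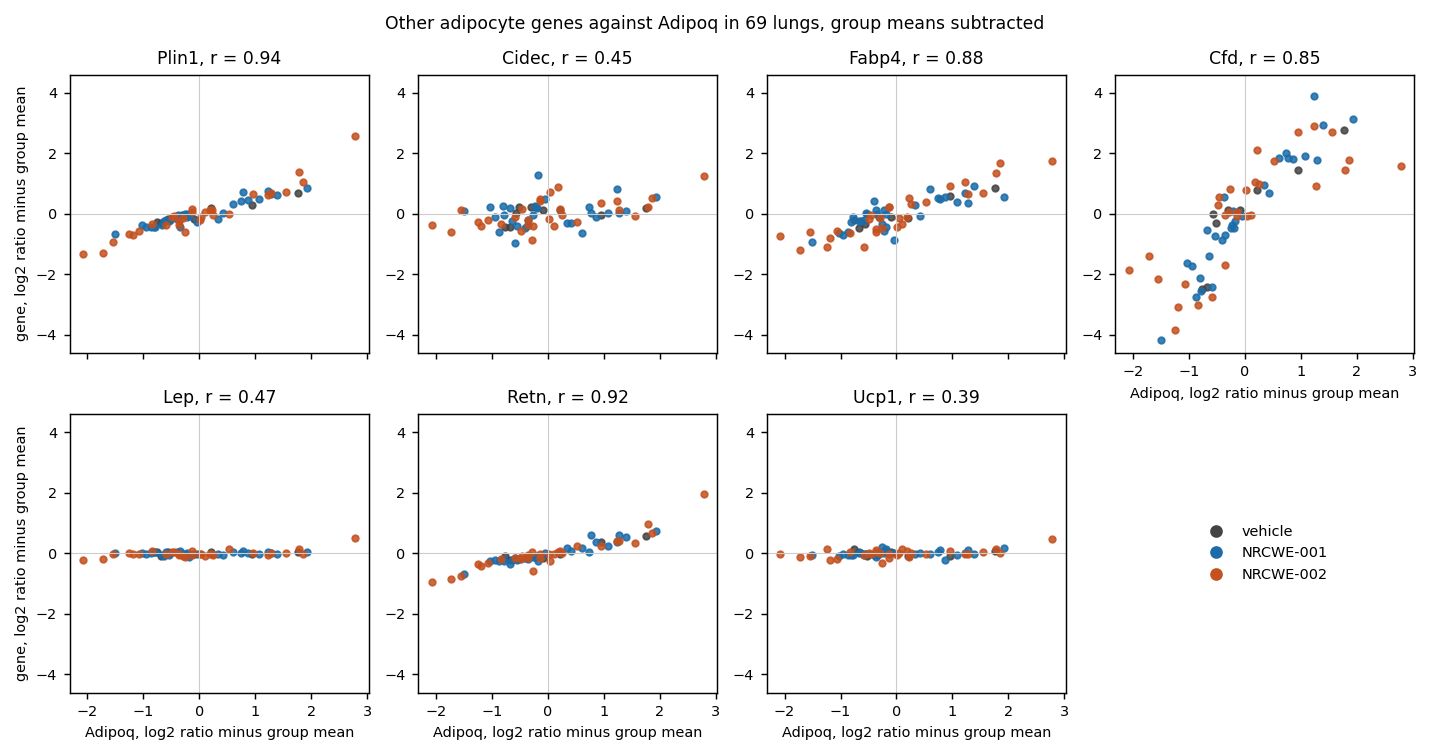
Log2 ratio minus the group mean of the 7 other adipocyte genes (vertical axes, same scale) against that of Adipoq (horizontal axes) in 69 lungs, coloured by treatment. Plin1, Retn, Fabp4 and Cfd follow Adipoq (r from 0.85 to 0.94), Cidec does so loosely (r of 0.45), and Lep and Ucp1 lie near 0 except in 1 lung.

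The same order held among the 9 vehicle lungs alone. There r with Adipoq was 0.98 for Plin1 (exact permutation p = 0.000135, adjusted p = 0.000945), 0.96 for Retn (exact permutation p = 0.00131, adjusted p = 0.00306), 0.93 for Fabp4 (exact permutation p = 0.00196, adjusted p = 0.00343) and 0.88 for Cfd (exact permutation p = 0.000678, adjusted p = 0.00237). All permutation tests were 2-sided. Cidec, with r of 0.39 in the vehicle lungs, did not pass (exact permutation p = 0.293).

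Cidec, Lep and Ucp1 followed Adipoq less closely. For Cidec r was 0.45 and rho 0.43 over the 69 lungs (permutation p = 0.00015, adjusted p = 0.000175), and r was 0.34 without the 2 farthest lungs. For Lep r was 0.47 (adjusted permutation p = 9.8e-05), but rho was 0.18 (adjusted permutation p = 0.132), and r was 0.32 without the 2 farthest lungs. For Ucp1 r was 0.39 and rho 0.32 (adjusted permutation p = 0.00111 and 0.00944), and r was 0.21 without those lungs. The relations of Lep and Ucp1 thus drew on the farthest lungs, 1 of which was the lung of NRCWE-002 at 18 µg on day 28 with the highest Adipoq and the other a lung at 54 µg of NRCWE-001 on day 1. In the 9 vehicle lungs r with Adipoq was 0.2 for Lep and -0.11 for Ucp1, with exact permutation p of 0.604 and 0.775.

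The genes outside the 8 that tracked their mean most closely were, by Pearson r over the 69 group-centred arrays, Car3 at 0.91, Aoc3 at 0.81, Sult1d1 at 0.81, Unc79 at 0.8, Cd209f at 0.79, Thrsp at 0.79, Reg3g at 0.79 and Plin4 at 0.78. The mean was taken over unscaled log2 ratios, so the members with the widest spread, Cfd and Adipoq, weigh most in it. The members' own r with it was 0.97 for Adipoq, 0.93 for Plin1, 0.92 for Cfd, 0.91 for Fabp4 and 0.89 for Retn. It was 0.53 for Cidec, 0.47 for Lep and 0.38 for Ucp1. Car3, the carbonic anhydrase abundant in fat and muscle, Thrsp, a regulator of lipid synthesis, and Plin4, a perilipin of fat cells, are in the list of other adipocyte genes. Aoc3 encodes the amine oxidase VAP-1 of fat cells and vessels. Reg3g, an antimicrobial lectin of epithelia, is no fat cell gene, and its SD within groups was 2.04. The genes most like Ucp1 were Nrg4, a factor secreted by brown fat, at 0.61, A530016L24Rik at 0.58, Cyp2e1 at 0.51 and Olfr1133 at 0.49. Olfr1133 was well above background on 0 arrays and Ucp1 on 9, so that likeness is between dim probes.

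Genes of other tissues moved with the adipocyte genes too. How many of all 18749 genes had r above 0.5 with the mean of the 8 was not counted. The list counts given from here on therefore have no share of all genes beside them. Of 28 other adipocyte genes measured, 9 had r above 0.5 with the mean of the 8 genes, and the mean of the list had r of 0.88. Those with the widest spread were Car3, with log2 ratios of -0.83 to 5.85, Slc2a4, the insulin-regulated glucose transporter, Plin4 and Thrsp. Of 18 brown adipocyte genes, 9 had r above 0.5 and the list mean had r of 0.74. Its most variable members, Fabp3, Cox7a1, Cox8b and Plin5, with r of 0.6 to 0.68, are also expressed in heart. Of 16 heart muscle genes, all 16 had r above 0.5, and the list mean had r of 0.74 and ran from -0.35 to 3.32. In mice heart muscle cells extend along the pulmonary veins into the lung. Tnni3, Tnnt2, Sln and Ckmt2, contractile and calcium or energy handling genes of heart and muscle, had r of 0.71, 0.73, 0.68 and 0.71.

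Skeletal muscle genes varied as widely and followed less closely. Acta1, Tnnc2, Tnnt3 and Myh2 had SDs within groups of 1.42 to 2.15 and r of 0.12 to 0.22 with the mean of the adipocyte genes. None of the 12 genes of that list passed an r of 0.5, and the list mean had r of 0.23 and rho of 0.38. Its highest r values were 0.46 for Myl1, 0.44 for Myh4 and 0.43 for Myh8, muscle genes named after their values were seen. The mean of the mesothelial list had r of -0.4, with all 6 genes below 0, among them Msln at -0.56 and Upk3b at -0.44. List means had r of 0.35 for the lymph node genes, -0.08 for thymus, 0 for endothelium, -0.23 for macrophages and -0.05 for lung epithelium. The 8 genes of the lung epithelial list, among them surfactant protein C (Sftpc) at log2 ratios of 6.66 to 8.28, were well above background on all 69 arrays, so the defining markers of lung were present in every sample. Fabp4, which endothelial cells and macrophages also make, followed Adipoq at 0.88, and which cells carried its signal was not tested.

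Airway genes were added as a list after Reg3g had been seen among the genes most like the members. Of 12 measured airway epithelial genes, 8 had r above 0.5, with a list mean at 0.75. The secretory genes Bpifb1, Bpifa1, Muc5b and Scgb3a1 had r of 0.76, 0.75, 0.72 and 0.71. Scgb1a1, another airway secretory gene, which stood in the lung epithelial list, had r of 0.08. The basal cell genes Krt5, Krt15 and Trp63 had r of -0.01 to 0.04. Of 7 cartilage genes, added at the same time, 1 had r above 0.5, Chad at 0.71. These correlations are descriptions over arrays that share 1 reference RNA, and the part of heart, airway or other tissue in the fat gene values was not tested.

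**Figure D4:**
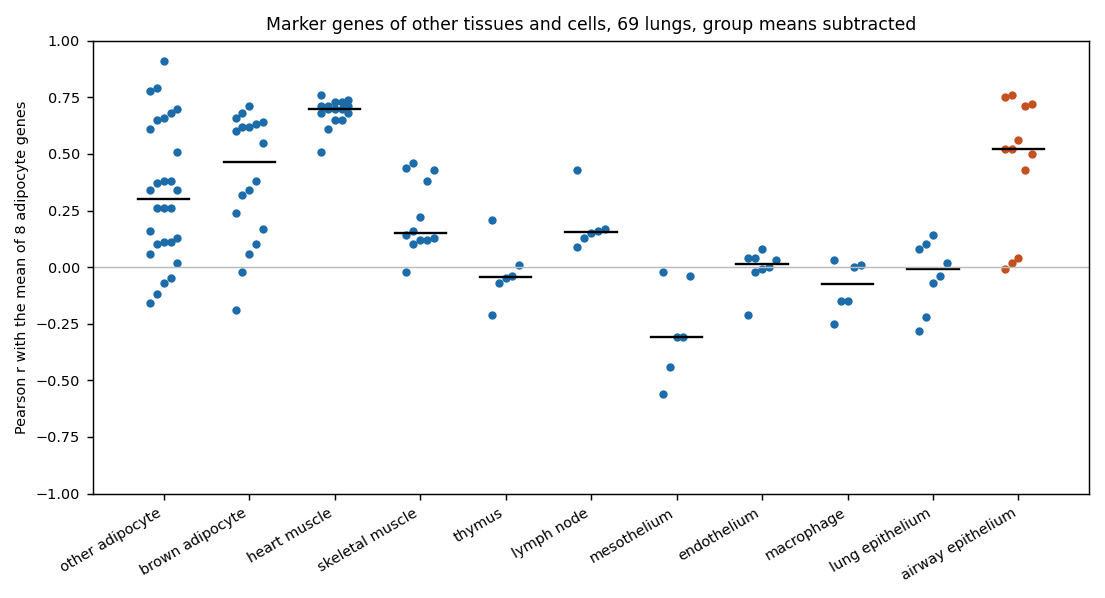
Pearson r of each marker gene with the mean of the 8 adipocyte genes over 69 lungs after subtraction of group means (vertical axis), by list, with bars at the list medians. All 16 heart muscle genes lie above 0.5, the endothelial, macrophage and lung epithelial genes lie around 0, and the airway list in orange was added after values had been seen.

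The 14 group means were ordered as follows, each with the spread of its own lungs. Adipoq had its lowest mean, 0.32 ± 0.72 (SD, n = 5), at 162 µg of NRCWE-001 on day 28 and its highest, 2.64 ± 2.04 (SD, n = 5), at 18 µg of NRCWE-002 on day 28. The highest of the 14 group means was in that same group for every member but Cidec. Replicate 4 of that group held the highest value of every member, so these means lean on the same lung. Without that lung the log2 difference from vehicle was 1.28 for Adipoq, 0.65 for Plin1 and 0.91 for Fabp4. At 162 µg of NRCWE-002 on day 28 it was 1.33, 0.76 and 0.65. The order of the groups thus turned for Adipoq and Plin1 but not for Fabp4. Lep and Ucp1 were each well above background on 1 of the 5 arrays at 18 µg. Cfd means ran from 2.5 ± 2.34 to 6.28 ± 1.53, Plin1 means from 0.25 to 1.74, Fabp4 means from 2.16 to 3.7 and Retn means from -0.1 to 0.95. The SDs of the lowest and the highest Adipoq group, 0.72 and 2.04, are large beside that span, so neighbouring groups overlapped.

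Dose was compared with the vehicle of the same day for each gene. None of the 8 genes was called in the dose effect of either particle on either day by limma's moderated F-test at an adjusted p below 0.05. Of all genes, that test called 0.816% in the NRCWE-001 groups and 0.709% in the NRCWE-002 groups of day 1. In the lungs of day 28 it called 0.645% with NRCWE-001 and 0% with NRCWE-002. At an unadjusted p below 0.05, 1 member passed in each of the first 3 and 4 members in the last, where 1557, 1568, 1585 and 864 of all 18749 genes passed, in the same order. None of the 8 was called in any of the 12 contrasts of a dose with vehicle, where at an unadjusted p below 0.05 Cidec passed in 4 and 5 members passed in the contrast of 18 µg of NRCWE-002 on day 28. In that last contrast 1181 of 18749 genes passed at an unadjusted p below 0.05. These called 0%, 0% and 0.496% of genes at 18, 54 and 162 µg of NRCWE-001 on day 1, and 0%, 0.107% and 0.533% for NRCWE-002. On day 28 they called 0.16%, 0.00533% and 0.048% of genes for NRCWE-001 and 0%, 0% and 0.00533% for NRCWE-002. The 6 exposed groups against vehicle called 0% of genes on day 1 and 0.00533% on day 28, with none of the 8 among them.

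The interval of a dose difference was wide for the genes with the large spread. For Adipoq the log2 differences from vehicle ran from -0.34 to 1.98 over the 12 contrasts, for Cfd from -1.11 to 2.67, for Plin1 from -0.22 to 1.29, for Fabp4 from -0.34 to 1.35 and for Retn from -0.05 to 0.96. For the 6 exposed groups of day 1 against vehicle, the 95% interval of the log2 difference was -2.18 to 1.69 for Cfd and -0.97 to 1.06 for Adipoq. On day 28 it was -1.29 to 2.97 for Cfd and -0.42 to 1.82 for Adipoq. Both pairs of intervals include 0.

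The largest difference of the secreted genes was in the lungs that received 18 µg of NRCWE-002 and were taken on day 28. Adipoq had log2 ratios of 3.91, 2.37, 0.91, 5.42 and 0.56 there, against 2.42, -0.02, 0.14 and 0.09 in the vehicle lungs. The groups overlapped: 2 of the 5 exposed lungs lay above every vehicle lung, and both groups held a high and a low lung. The log2 difference was 1.98 ± 0.7 (SE), with an adjusted p of 0.74 in limma. Plin1 (1.29 ± 0.43, adjusted p = 0.684), Fabp4 (1.35 ± 0.46, adjusted p = 0.684) and Retn (0.96 ± 0.32, adjusted p = 0.676) had unadjusted p below 0.05 in limma and did not pass the adjustment. Cfd, with log2 ratios of 7.18, 7.08, 4.89, 7.84 and 4.41 there against 6.36, 1.19, 3.29 and 3.59 in the vehicle lungs, differed by 2.67 ± 1.34 (limma adjusted p = 0.795). For Cfd 3 of the 5 exposed lungs lay above every vehicle lung. Without the lung at 5.42 the log2 difference of Adipoq was 1.28, that of Plin1 0.65, that of Fabp4 0.91 and that of Retn 0.47. The median log2 difference in this contrast was 1.13 over the 8 adipocyte genes, 1.59 over the 16 heart muscle genes, 1.22 over the 12 skeletal muscle genes and 0.26 over the 28 other adipocyte genes, against -0.01 over all genes. No gene of these lists was called in it, and the part of muscle tissue in the difference was not tested.

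The particles were also compared with each other as means over the doses. On day 28 only slides 9 and 11 held exposed lungs of both particles, so particle and slide cannot be fully told apart there. The genes called in that comparison ranged from 4 to 4513 over the alternative fits. On day 28, when 6.25% of genes were called, Adipoq was 0.97 ± 0.38 higher on the log2 scale with NRCWE-002 than with NRCWE-001 (limma adjusted p = 0.112), from means of 1.84 ± 1.62 and 0.87 ± 0.88 (SD, n = 15 each). Cfd differed by 1.42 ± 0.73 (limma adjusted p = 0.239) and Plin1 by 0.55 ± 0.24 (limma adjusted p = 0.146). No member was called, and 5 of the 15 NRCWE-002 lungs had more Adipoq than every NRCWE-001 lung. Without 1 lung of NRCWE-002 at 18 µg, replicate 5, the Adipoq difference was 1.14 and passed (limma adjusted p = 0.0431). That lung, at 0.56, had the lowest Adipoq of its group, and this was the favourable end of the 69 fits that each left out 1 array. At the other end the Adipoq difference was 0.74, and the highest limma adjusted p was 0.219. The difference passed in 1 of the 69 fits. The median log2 difference was 0.43 over the members, 0.73 over the heart muscle genes, 0.49 over the skeletal muscle genes and 0.25 over the airway genes, whose part in it was not tested. Of the other adipocyte genes, hormone-sensitive lipase (Lipe), named after its values were seen, was called at 0.24 ± 0.06 (limma adjusted p = 0.0174). On day 1, when 0.101% of genes were called, the log2 differences of the members lay between -0.18 and 0.09 and none was called.

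Cidec differed from the other members in how it varied with dose. On day 1 its log2 ratios were 4.76, 4.22, 4.88, 4.77 and 4.6 in the vehicle lungs, a narrow range beside that of Adipoq. They were 3.58, 3.4, 2.9, 2.88 and 4.78 at 162 µg of NRCWE-001, where 4 of 5 lungs lay below every vehicle lung. At 54 µg of NRCWE-002 they were 3.81, 3.54, 3.63, 4.02 and 3.33, where all 5 lay below every vehicle lung. At 162 µg of NRCWE-002 they were 3.27, 4.2, 3.31, 3.11 and 4.56, where 4 of 5 lay below. At 54 µg of NRCWE-001 they were 4.09, 3.73, 3.72, 4.39 and 4.69, where 3 of 5 lay below, and the difference was the smallest of the 4 groups at these doses (-0.52 ± 0.3, limma adjusted p = 1). The low lungs were thus in the groups of the middle and high doses, and each 162 µg group held 1 lung at the vehicle level. At 18 µg the group means, 4.64 with NRCWE-001 and 4.62 with NRCWE-002, stood beside 4.65 for the vehicle.

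None of these differences passed the adjustment over all genes. The log2 difference was -1.14 ± 0.3 (SE) at 162 µg of NRCWE-001 (0.454-fold; limma adjusted p = 0.0537), -0.98 ± 0.3 at 54 µg of NRCWE-002 (limma adjusted p = 0.307) and -0.96 ± 0.3 at 162 µg of NRCWE-002 (limma adjusted p = 0.148). The F-test of the dose effect gave adjusted p of 0.0704 for NRCWE-001 and 0.0596 for NRCWE-002 in limma. With the slide as a random block the difference was -1.3 at 162 µg of NRCWE-001 (limma adjusted p = 0.00296) and -1.14 at 54 µg of NRCWE-002 (limma adjusted p = 0.0278), so both passed there. With the scanner's processed signals it was -0.39 at 162 µg of NRCWE-001, and at 54 and 162 µg of NRCWE-002 its sign turned (0.05 and 0.22). The Cidec probe was well above background in the reference channel on 37 of 69 arrays. Without the 1 lung at 4.78 the difference at 162 µg of NRCWE-001 was -1.46 (limma adjusted p = 0.00158), and without the 1 lung at 4.56 that at 162 µg of NRCWE-002 was -1.17 (limma adjusted p = 0.0348). Both lungs were picked by their values and are the favourable end of the 69 fits that each left out 1 array. At the other end the differences were -0.98 and -0.81, and the highest limma adjusted p were 0.373 and 0.431. The differences passed in 7 and 1 of the 69 fits. In the lung channel alone the difference at 162 µg of NRCWE-001 was -1.37 (limma adjusted p = 0.0106).

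Within slides the same pattern could be read directly, because 5 slides each held 1 vehicle lung of day 1 and 1 lung at each dose of 1 particle. On these slides Cidec was below the vehicle lung in all 5 lungs at 162 µg, by -1.5, -1.29, -1.18, -0.82 and -1.98 on the log2 scale. It was below it in all 10 lungs at 54 and 162 µg, and in 12 of all 15 exposed lungs. The 3 that were not lower had received 18 µg. The Adipoq values of the same 10 lungs at 54 and 162 µg ran from -0.33 to 2.08. The other 10 lungs at 54 and 162 µg of day 1 lay on slides without a vehicle lung of day 1, and they include those at 4.78, 4.69, 4.56 and 4.39, inside the vehicle range. A fit added after the data had been seen took Adipoq minus its group mean as a covariate. Such a covariate cannot move a difference between groups and can only change the residual spread. The Cidec difference at 162 µg of NRCWE-001 thus stayed at -1.14 (limma adjusted p = 0.0245). Whether Adipoq differences between groups had a part in it was not tested. At 162 µg of NRCWE-001 on day 1 the list medians, as log2 differences, were -0.15 for lung epithelium, -0.13 for endothelium, -0.19 for macrophages, -0.36 for mesothelium and 0.59 for heart muscle. No gene of these lists was called in that contrast, and their part in the Cidec difference was not tested.

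**Figure D5:**
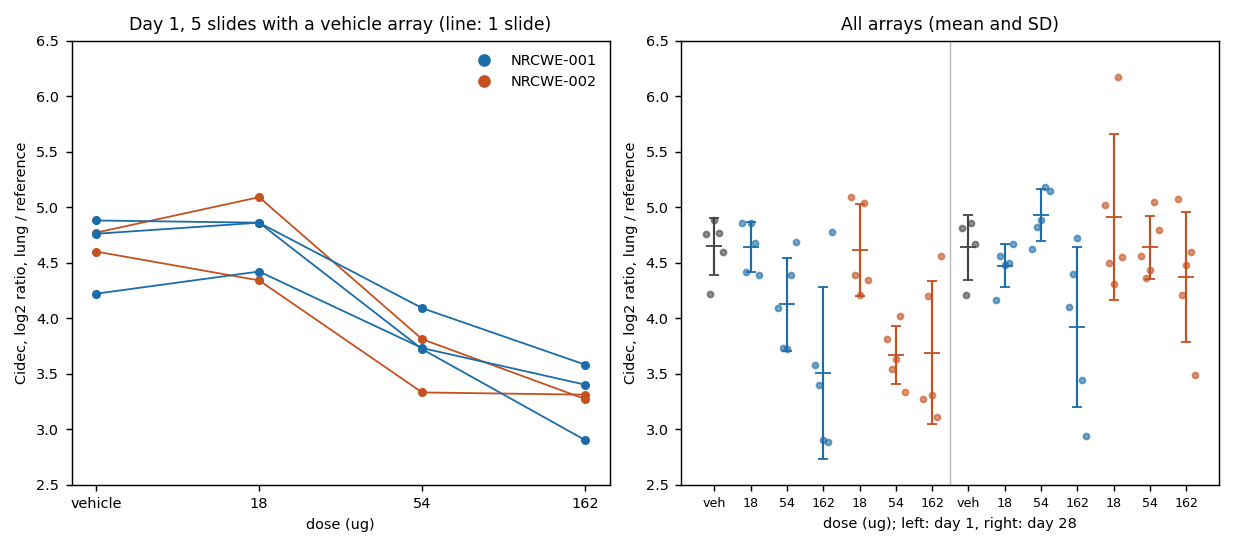
Cidec log2 ratio of lung to reference RNA (vertical axes). Left, the 5 slides with a vehicle lung of day 1, each line joining the 4 lungs of 1 slide by dose; right, all 69 lungs by vehicle (veh) or dose in µg and day, with group means and SD. All 5 lines end lower at 162 µg than at the vehicle, and on day 28 the lowest group mean is 3.92, at 162 µg of NRCWE-001.

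By day 28 Cidec was nearer the vehicle. Its log2 ratios at 162 µg of NRCWE-001 were 4.1, 4.4, 4.72, 3.44 and 2.94, against 4.81, 4.21, 4.86 and 4.67 in the vehicle lungs, so 3 of 5 lay below the vehicle range. The log2 difference was -0.72 ± 0.32 (limma adjusted p = 0.618). At 162 µg of NRCWE-002 it was -0.27 ± 0.32 (limma adjusted p = 0.904). The change of the 162 µg effect from day 1 to day 28 was 0.42 ± 0.44 for NRCWE-001 and 0.69 ± 0.44 for NRCWE-002 on the log2 scale (limma adjusted p = 1 and 0.874). These contrasts, added after the data had been seen, called 0% of genes, so a return towards the vehicle level was not shown.

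Between the days, Cidec was the only member called. The mean over the 7 groups of day 28 was 0.43 ± 0.11 above that of day 1 on the log2 scale (limma adjusted p = 0.00933), in a contrast that called 10.5% of all genes. Its mean was 4.55 ± 0.56 (SD, n = 34) on day 28 and 4.13 ± 0.64 (SD, n = 35) on day 1. The vehicle lungs differed by -0.01 ± 0.32 between the days, and that contrast called 0% of genes. The difference over all groups therefore contained the low exposed lungs of day 1. With the slide as a fixed block it was 0.52 ± 0.28 and did not pass (limma adjusted p = 0.572). Adipoq was 0.57 ± 0.25 higher on day 28 (limma adjusted p = 0.143), Plin1 0.35 ± 0.16 (limma adjusted p = 0.141) and Cfd 0.88 ± 0.48 (limma adjusted p = 0.251). Of the 28 other adipocyte genes, 2 were higher and 1 lower on day 28, all named after their values were seen: Lipe by 0.24 ± 0.04, the synuclein Sncg by 0.15 ± 0.05 and, lower, the stearoyl-CoA desaturase Scd1, which fell by 0.4 ± 0.07.

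Calls by dose were rare in the wider adipocyte lists and also among all 18749 genes, where the 12 contrasts with vehicle gave 254 calls. Over the 12 contrasts of dose with vehicle, 0 of 28 other adipocyte genes were called higher and 1 lower, and none of 18 brown adipocyte genes was called. The 1 called lower was the carboxylesterase Ces1d, named after its values were seen, which fell by 0.93 ± 0.2 on the log2 scale at 54 µg of NRCWE-002 on day 1 (limma adjusted p = 0.0282). In the F-tests of the dose effect, Ces1d was also called for NRCWE-002 on day 1, where 0.709% of all genes were called. So was 1 brown adipocyte gene, Dio2, the deiodinase that activates thyroid hormone, also named after its values were seen. List medians of the log2 difference ran from -0.05 to 0.26 for the other adipocyte genes and from -0.12 to 0.18 for the brown adipocyte genes.

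The highest lungs were high in most of the members at once. The lung of NRCWE-002 at 18 µg on day 28 with Adipoq at 5.42 had log2 ratios of 4.3 for Plin1, 6.17 for Cidec, 5.44 for Fabp4, 7.84 for Cfd, 2.93 for Retn, 0.63 for Lep and 0.62 for Ucp1. It was the highest of 69 for all 8 genes. The next by Adipoq was another lung of that group at 3.91, then a lung at 162 µg of NRCWE-002 on day 28 at 3.78 and a lung at 162 µg of NRCWE-002 on day 1 at 2.95. The sixth was a vehicle lung of day 28 at 2.42, with Cfd at 6.36 and the heart gene Tnni3 at 3.24. The 8 lungs with the highest Adipoq came from 6 groups, and 6 of them were also among the 8 highest for Cfd, 5 for Plin1 and 2 for Cidec. Acta1, the skeletal muscle actin, was at 5.6 and 5.04 in 2 of the first 4 lungs and at -2.33 and -2.25 in the others.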

How the data were processed

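The authors hybridised lung RNA labelled with Cy5 against Universal Mouse Reference RNA labelled with Cy3, with no dye swap, and scanned the arrays with Agilent Feature Extraction (version not given in the sources used here). The deposited log2 ratios of lung over reference, LOWESS-normalized by the authors, were used as given. They had r of 0.994 to 0.999 per array with loess ratios made without background correction. The deposited scanner intensity values gave the detection calls, the single-channel values and the alternatives. Between 61.4% and 87.8% of spots per array were well above background in the lung channel and 49.7% to 85.5% in the reference channel. The number of arrays limits the precision.

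Transcript identifiers were matched to symbols through RefSeq tables of GRCm38.p6 (27479 of 41174 probes, 18749 genes), and the median over probes was taken per gene. Probes without a match were not used here. The 69 arrays entered 1 fit of 14 group means in limma 3.58.1 (R 4.3.3) with Benjamini-Hochberg adjustment over all genes and a threshold of 0.05. All contrasts of 1 day share their vehicle arrays. On simulated data for NRCWE-001 at 162 µg on day 1, 97 of 100 genes changed by 1 and 100 of 100 changed by 2 on the log2 scale were recovered, with 12 false calls, among 18749 genes. The changed genes were drawn at random from all genes, with independent noise and no slide effect. This recovery therefore holds for genes near the median SD of 0.18. It does not hold for members with a wide spread, such as Adipoq at 1.08 and Cfd at 2.06. Slide and scan day (18 and 12 of them) were tested as batches.

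Named genes are the 8 members, the 8 genes most correlated with their mean, the 4 most correlated with Ucp1 and up to 4 genes with the largest SD of each marker list, with exceptions marked in the text. The members and lists were chosen with earlier results of these data known.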

Additional observations from a re-analysis of the deposited data

Results flagged for a closer look

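In 11 of 112 sets of 1 gene in 1 group, 1 lung lay apart from the others by Dixon's test at the 95% level, where chance alone flags about 5.6. In the vehicle group of day 28, replicate 1 stood apart for Adipoq (2.42, nearest 0.14), Plin1 (1.14, nearest 0.28) and Retn (0.56, nearest -0.18), as log2 ratios. In the vehicle group of day 1, replicate 5 stood apart for Fabp4 (3.07, nearest 2.39) and Retn (0.31, nearest -0.09). At 54 µg of NRCWE-001 on day 1, replicate 5 stood apart for Adipoq (2.38, nearest 0.23) and Retn (0.66, nearest -0.21). Fabp4 stood apart in replicate 2 of NRCWE-002 at 162 µg on day 1 (4.48, nearest 2.71) and in replicate 4 of NRCWE-002 at 162 µg on day 28 (4.33, nearest 2.87). Plin1 stood apart in replicate 3 of NRCWE-001 at 162 µg on day 28 (1.07, nearest 0.23), and Lep in replicate 4 of NRCWE-002 at 18 µg on day 28 (0.63, nearest 0.11). In all 11 the lung that stood apart was the highest of its group.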

How the results depend on the processing

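No paired analysis was possible because the replicate numbers only name arrays within a group; slides were used as blocks instead. Under every alternative run for these counts (the arrays of 1 day alone do not apply between days) and in the 69 fits that each left out 1 array, none of the adipocyte genes was called in the dose effect of either particle on day 28, in the exposed groups together on day 1 or day 28, in the particle comparison of day 1 or between the vehicle groups. Cidec accounted for the gains on day 1. In the dose effect of NRCWE-001, 1 member was called with the lung channel alone, with slide as a fixed or a random block, with scan day as a block and with the arrays of day 1 alone. In that of NRCWE-002, 1 was called under the same settings except slide as a fixed block. Over the 12 dose contrasts, 1 call was made with the lung channel, slide as a fixed block or scan day, and 2 with slide as a random block. Leaving out 1 array gave 0 to 1 members called in the dose effect of either particle on day 1 (1 in 3 and 5 of 69 fits), 0 to 2 calls over the dose contrasts, 0 to 1 in the particle comparison of day 28 and 1 to 1 between the days. The other member counts stayed from 0 to 0. The arrays that made a call when left out were NRCWE-001 at 162 µg, replicate 5 of day 1 and replicates 3 and 5 of day 28; NRCWE-002 at 162 µg, replicate 5 of day 1 and replicates 1 and 5 of day 28; and NRCWE-002 at 18 µg on day 28, replicates 4 and 5. In the particle comparison of day 28, 1 member, Lep (0.13, limma adjusted p = 0.0423), was called with median centring in place of loess. Between the days, 0 members were called with processed signals, slide as a fixed or random block, or scan day, where the Cidec difference was 0.46, 0.52, 0.46 and 0.28. With processed signals Cidec turned to 0.05 at 54 µg and 0.22 at 162 µg of NRCWE-002 on day 1. The r of Ucp1 with Adipoq turned to -0.11 in the 9 vehicle arrays. The cause of these moves was not tested.

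Counts over all genes moved with the blocks and with the normalization, the channel and the arrays in the fit. For the dose effect of NRCWE-001 on day 1 they moved from 153 to between 36 (median centring) and 1317 (slide as a fixed block), for NRCWE-002 on day 1 from 133 to between 80 and 687, for NRCWE-001 on day 28 from 121 to between 18 and 546, and for NRCWE-002 on day 28 from 0 to at most 10. The particle comparison moved from 1172 to between 4 and 4513 genes on day 28 and from 19 to between 0 and 171 on day 1. The contrast of the days moved from 1965 to between 16 and 2026, and the exposed groups of day 1 from 0 to at most 204. Dim probes limit Lep and Ucp1.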
